A study of Mus musculus with 9 samples.

Results

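Metallothioneins and the zinc transporters that are controlled with them were followed as 6 genes of the 53700 in the table: the metallothioneins Mt1, Mt2 and Mt3, the zinc-sensing transcription factor Mtf1, the zinc exporter Slc30a1 and the zinc importer Slc39a10. The genes were found by their symbols. They were selected on measured values, chosen by the low counts of Mt1 in valine-treated cells, so every value of these genes between Valine and Control is a description with no test. Tests are given between Val+PA and the other groups, each of which shares the Control or the Valine libraries with the comparison that chose the genes. Of the 6 genes, 4 had enough counts to be tested (Mt1, Mtf1, Slc30a1 and Slc39a10), while Mt2 and Mt3 did not.

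Gene expression was measured by RNA sequencing in C2C12 cells, a mouse myoblast line. Control, Valine and Val+PA had 3 libraries each, and all 9 came from cells placed in OPTI-MEM, a reduced-serum medium, and starved in it for 12 h. Control wells were collected at the end of the starvation. In the Valine group, the branched-chain amino acid valine was then added at 0.45 mM for 36 h. In the Val+PA group, valine at the same 0.45 mM was given for 24 h, and the saturated fatty acid palmitic acid, at 75 µM, for 12 h. The labels do not say whether valine stayed on during the palmitic acid. Each group was 1 plate of 6 wells, of which 3 were drawn at random. The p-values therefore measure the spread between wells of 1 plate, and plate and treatment cannot be told apart. The Valine and Val+PA wells were also collected 36 h after the Control wells, with no well kept without valine to that time, so time in culture and treatment cannot be told apart. In these bulk samples, fewer cells of a type and less RNA per cell cannot be told apart either.

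Metallothioneins are small cysteine-rich proteins that bind zinc and copper in the cytoplasm and buffer their free concentration. Free zinc is sensed by the zinc-finger protein MTF-1, the product of Mtf1, which binds metal response elements in promoters and switches on Mt1, Mt2 and Slc30a1 and is reported to repress Slc39a10. The ZnT proteins (Slc30a genes) move zinc out of the cytoplasm, and the ZIP proteins (Slc39a genes) move it in. In skeletal muscle, Mt1 and Mt2 are known to rise in wasting, and glucocorticoids and metals are known to induce them.

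The library totals ran from 26750226 counts in Control 3 to 35976589 in Val+PA 1, so that 1 count equalled 0.0271 to 0.0403 CPM (counts brought to a common library size). Control 3 and Val+PA 2 stood apart from the others of their group. The chi-square per degree of freedom over genes was 9.81 between Control 1 and Control 2 and 95.01 and 103.4 between Control 3 and these. It was 18 between Val+PA 1 and Val+PA 3, and 79.8 and 45.5 between Val+PA 2 and these. The Valine libraries differed by 3.71 to 4.98. The 10 myoblast markers summed to 2783 to 3007 CPM in Control, against 4152 to 4339 in Valine and 3924 to 5912 in Val+PA. Des (mean 1233 CPM in Control and 1947 in Valine) and Itga7 (770.3 and 1251) were the largest parts. Cdh15 was at 176.0 and 161.8 CPM, and Cav3 had 0 to 11 counts in a library. Of 9 myoblast markers tested, 6 rose and 0 fell in Valine against Control, beside 41.9% of all genes called. The 10 markers of fibroblasts, which C2C12 cells partly share, summed to 1215 to 1786, 3569 to 3673 and 3291 to 4457 CPM. Adipocyte markers summed to 27.3 to 32.7, 25.1 to 28.9 and 32.0 to 40.1 CPM, with Adipoq, Lep and Retn at 0 in every library. The largest parts of this sum were Pparg and Cebpa, at means of 13.96 and 14.48 CPM in Control. The part of these shifts in the values of the zinc genes was not tested.

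The promoter windows of Mt1, Mt2 and Slc30a1, which hold the sequence that MTF-1 is known to bind, are printed here. The window of Mt4 also holds it and is not printed. Mt1 and Slc30a1 differed in their values, and a link of the sequence to these values was not tested. The core of a metal response element was searched as TGCACNC or TGCGCNC on both strands, in windows from 250 bases before to 30 bases after the start that RefSeq annotates (GRCm38.p6, 280 bases). All 7 genes looked up, the 6 genes and Mt4, had an entry. The 3 windows below hold matches, which are in capitals (a match on the reverse strand reads GNGTGCA or GNGCGCA), and each is printed 5′ to 3′ on the strand of the gene. Mt1 lies at chr8:94178839-94179118, Mt2 at chr8:94172368-94172647 and Slc30a1 at chr1:191906531-191906810, all on the forward strand.
Mt1: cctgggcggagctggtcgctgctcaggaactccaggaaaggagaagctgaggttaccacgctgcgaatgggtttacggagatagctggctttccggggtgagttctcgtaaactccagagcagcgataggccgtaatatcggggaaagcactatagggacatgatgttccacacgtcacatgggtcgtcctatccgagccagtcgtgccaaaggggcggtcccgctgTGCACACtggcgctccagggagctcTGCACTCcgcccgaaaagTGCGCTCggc
Mt2: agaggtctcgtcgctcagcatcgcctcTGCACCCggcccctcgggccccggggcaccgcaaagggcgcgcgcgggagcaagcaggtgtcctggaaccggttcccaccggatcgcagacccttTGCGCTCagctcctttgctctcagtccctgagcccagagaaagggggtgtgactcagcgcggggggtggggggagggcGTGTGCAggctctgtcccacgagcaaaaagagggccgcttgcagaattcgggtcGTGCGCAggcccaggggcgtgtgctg
Slc30a1: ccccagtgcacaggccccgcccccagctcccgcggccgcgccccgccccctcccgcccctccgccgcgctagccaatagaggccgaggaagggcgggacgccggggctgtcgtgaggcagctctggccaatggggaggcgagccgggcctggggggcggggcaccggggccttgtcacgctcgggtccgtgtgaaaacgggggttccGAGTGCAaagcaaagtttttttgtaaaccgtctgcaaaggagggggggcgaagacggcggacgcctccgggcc
The Mt1 window held 3 matches, all on the forward strand, beginning 23 bases before the annotated start and at positions 3 and 21 with the start counted as 1. At least 3 matches were found in 1.73% of the 32851 promoters of this length. The Mt2 window held 4 matches, 2 on each strand, a number reached by 0.405% of promoters. Slc30a1 and Mt4 held 1 match each, and 24.1% of promoters held at least 1. The windows of Mtf1, Mt3 and both annotated starts of Slc39a10 held no match. A match shows only that the letters are there, since no binding was measured. Where transcription starts was not measured either. Matches further than 30 bases past the annotated start were not counted, so the numbers hold for these windows and not for whole promoters.

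Mt1 (ENSMUSG00000031765, chr8:94179082-94180327 of GRCm38, forward strand) was the metallothionein that these cells expressed at a level the table could measure. It had 1571, 1310 and 1457 counts in the 3 Control libraries, which are 50.4, 39.8 and 58.7 CPM. In the Valine libraries it had 406, 370 and 301 counts, or 11.03, 10.8 and 8.82 CPM. In the Val+PA libraries it had 500, 569 and 402 counts, or 13.6, 18.2 and 12.4 CPM. All 6 treated libraries lay below the lowest Control library, and the highest Valine library lay below the lowest Val+PA library.

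The mean level of Mt1 was 49.6 ± 9.46 CPM in Control, against 10.2 ± 1.203 in Valine and 14.7 ± 3.07 in Val+PA (SD, n = 3 each). Between Valine and Control the log2 fold change was -2.28 (SE 0.18), a level 4.86-fold lower. This is the value for which the genes were chosen, and among the 18415 genes tested it ranked 145 from the lowest. Among all genes tested, 41.9% passed an adjusted p of 0.05 in this comparison, 20.8% higher and 21.1% lower, and in 59.0% the libraries of the 2 groups did not overlap (29.7% higher, 29.2% lower). Between Val+PA and Control, Mt1 fell by 1.75 on the log2 scale (SE 0.18, adjusted p = 1.33e-05), a level 3.37-fold lower. These 2 comparisons share the Control libraries.

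In the Val+PA wells the level of Mt1 was 1.45-fold that in Valine. The log2 difference was 0.53 (SE 0.18, 95% interval 0.14 to 0.92), with an unadjusted p of 0.0122 and an adjusted p of 0.326. It did not pass the test over all genes, although all 3 Val+PA libraries lay above all 3 Valine libraries. In this comparison 0.0% of genes passed with edgeR (limma-voom also called 0 genes and DESeq2 193), while 2428 genes had an unadjusted p under 0.05. The libraries of the 2 groups did not overlap in 24.6% of genes (12.6% higher, 12.0% lower). Val+PA 2, which had the highest Mt1 level of its group, is the library that stood apart. Without it and Control 3 the difference was 0.35 (adjusted p = 0.147).

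**Figure D1:**
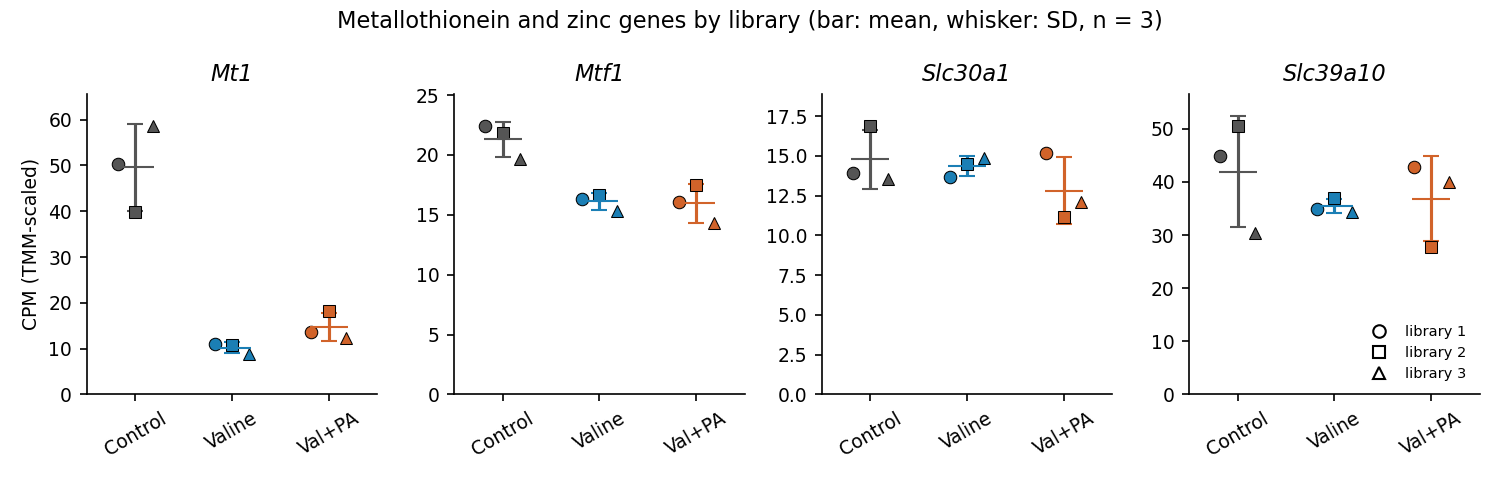
Level in CPM (vertical axis, from 0) of Mt1, Mtf1, Slc30a1 and Slc39a10 in each of the 3 Control, 3 Valine and 3 Val+PA libraries. Circles, squares and triangles are libraries 1, 2 and 3, the horizontal bar is the mean and the whiskers are the SD. The 6 treated libraries lie below all Control libraries for Mt1 and Mtf1, and the groups overlap for Slc30a1 and Slc39a10. Over all genes tested, the Valine libraries lie below those of Control in 29.2%, and the Val+PA libraries in 22.1%.

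Mt2 (ENSMUSG00000031762, chr8:94172664-94173568), which encodes the other widely expressed metallothionein and lies 6.4 kb from the start of Mt1, had 6 counts in all. They were 1, 0 and 1 in Control and 0, 2 and 0 in each treated group. Every library lay below the limit that a count of 0 allows, 3 counts, which is 0.0814 to 0.121 CPM. This limit covers counting error only. No direction can be read from these counts.

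The annotation at Mt2 limits what its count can show. Of its 588 exonic bases, 432 (73.5%) lie under exonic sequence of Gm45774, an antisense gene on the reverse strand that had 0 to 10 counts in a library. Of the 554 stretches of 50 bases in Mt2 transcripts, 254 occur reversed in Gm45774. Mt1 shared none of its 1292 stretches with another gene. The labels call the libraries strand-specific, but how the counting treated strand is not given in the sources used here.

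Protein-coding genes overlapped in this way had few counts in the table where nearly all of the gene was covered. With over 90% of exonic bases shared with a gene on the opposite strand, 48 of 54 genes (88.9%) had under 10 counts over the 9 libraries. With the other gene on the same strand they were 159 of 180 (88.3%), and among genes with no overlap 5338 of 15391 (34.7%). In the range that holds Mt2, 70 to 90% shared with the opposite strand, 7 of 34 genes (20.6%) had under 10 counts. Whether Mt2 RNA was low in these cells or its reads were left uncounted was not tested.

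**Figure D2:**
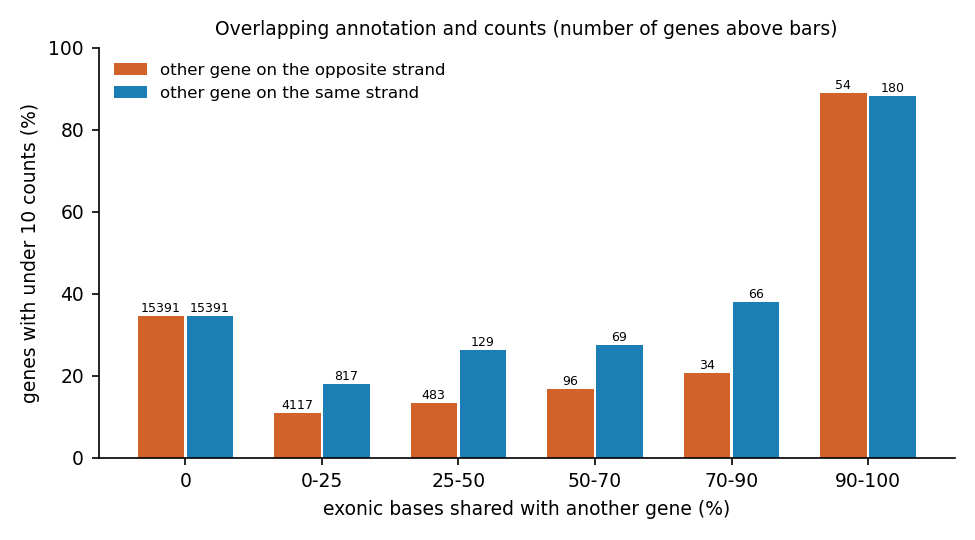
Share of protein-coding genes with under 10 counts over all 9 libraries (vertical axis, percent) by the share of their exonic bases that another gene also covers (horizontal axis, percent), with the other gene on the opposite or the same strand and the number of genes above each bar. The shares are 88.9% and 88.3% above 90% overlap and 20.6% for opposite-strand overlap of 70 to 90%, the range that holds Mt2.

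Mt3 (chr8:94152607-94154146), known as the metallothionein of brain, and Mt4 (chr8:94137197-94139031), that of stratified epithelia, had 0 counts in all 9 libraries. This allows up to 3 counts in a library, or 0.0814 to 0.121 CPM, by counting error alone. Of the 4 metallothionein genes, 1 was tested.

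The neighbours of Mt1 moved in both directions. Of the 10 other protein-coding genes that start within 250 kb of it, 6 were tested. Of these 6, 2 rose and 1 fell in Valine against Control, beside 41.9% of all genes called. In Val+PA against Control 2 rose and 2 fell, beside 39.2%. Between Valine and Control, Bbs2, a component of the ciliary BBSome, rose by 0.82 (SE 0.12, adjusted p = 0.000222) and Herpud1, an endoplasmic reticulum stress gene, by 0.37 (adjusted p = 0.0145) on the log2 scale. Nup93, a nuclear pore subunit that starts 35.5 kb from Mt1, fell by 0.80 (SE 0.11, adjusted p = 9.37e-05). Its level was 62.9, 61.1 and 52.7 CPM in Control and 31.7, 35.7 and 34.3 in Valine, while Val+PA had 35.1, 35.8 and 36.8. In Val+PA against Control, Bbs2 rose by 0.74, Herpud1 by 0.51, Nup93 fell by 0.71 and Nudt21, a polyadenylation factor, fell by 0.40 (adjusted p = 0.0116), and the other 2 tested genes did not pass. The call of Herpud1 between Valine and Control was lost without Control 1 (adjusted p = 0.0536), Valine 2 (0.0661) or Valine 3 (0.0680). Median log2 fold changes of the 6 genes were -0.11 and 0.20, against -0.0049 and -0.0018 for all genes tested.

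**Figure D3:**
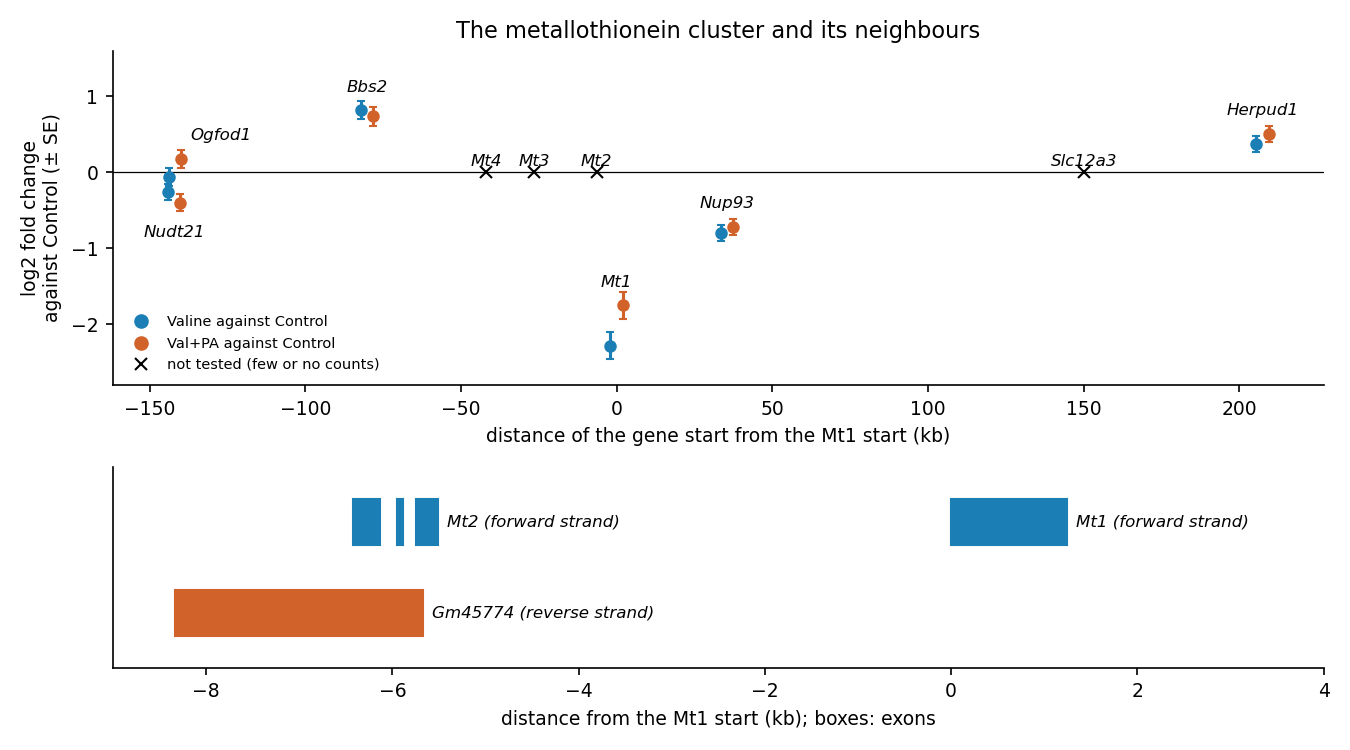
Upper panel: log2 fold change against Control with its SE (vertical axis) for protein-coding genes around Mt1, by the distance of their start from that of Mt1 in kb (horizontal axis); crosses are genes with too few counts to test. Lower panel: exons of Mt1, Mt2 and Gm45774 by distance from the Mt1 start. Among the genes plotted, Mt1 has the lowest values, -2.28 in Valine and -1.75 in Val+PA, and the exon of Gm45774 covers most of Mt2.

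Mtf1 (ENSMUSG00000028890, chr4:124802104-124849800), the factor that senses zinc, had 22.4, 21.8 and 19.7 CPM in Control. It had 16.4, 16.7 and 15.4 CPM in Valine and 16.04, 17.5 and 14.3 CPM in Val+PA. Every treated library lay below every Control library, and the 2 treated groups overlapped. Over all genes tested, all Valine libraries lay below all Control libraries in 29.2%, and all Val+PA libraries did in 22.1%. The means were 21.3 ± 1.46, 16.1 ± 0.691 and 15.96 ± 1.604 CPM (SD, n = 3 each).

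Between Valine and Control, Mtf1 had a log2 fold change of -0.40 (SE 0.12), given as a description. In Val+PA against Control it fell by 0.42 (SE 0.12, adjusted p = 0.0142). The adjusted p of the latter was 0.0554 without Control 1 and 0.0689 without Val+PA 3. Against Valine, the difference of Val+PA was -0.016 (95% interval -0.27 to 0.24, adjusted p = 0.958). Of the exonic bases of Mtf1, 721 of 8907 lie under an antisense gene.

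Slc30a1 (ENSMUSG00000037434, chr1:191906767-191913247) encodes ZnT1, the exporter of the plasma membrane and a classical MTF-1 target. It had 13.9, 16.9 and 13.5 CPM in Control and 13.7, 14.5 and 14.9 in Valine, while Val+PA had 15.2, 11.1 and 12.1. The 3 groups overlapped. The log2 fold change between Valine and Control was -0.044 (SE 0.14). Its sign turned with upper-quartile scaling (0.012) and with library size alone (0.026), so no direction is given for it.

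Slc30a1 did not pass in either comparison of Val+PA. The difference was -0.21 against Control (95% interval -0.52 to 0.11, adjusted p = 0.287) and -0.16 against Valine (95% interval -0.48 to 0.15, adjusted p = 0.596). The interval against Control does not reach the fall of Mt1 in the same comparison, 1.75. The means were 14.8 ± 1.84, 14.4 ± 0.627 and 12.8 ± 2.12 CPM (SD, n = 3 each).

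Slc39a10 (ENSMUSG00000025986, chr1:46807544-46892852, reverse strand) encodes ZIP10, an importer of the plasma membrane. It had 44.8, 50.6 and 30.3 CPM in Control. The Valine libraries were at 34.9, 37.0 and 34.4 CPM and the Val+PA libraries at 42.8, 27.8 and 39.9 CPM. The groups overlapped, and the lowest value of Control and of Val+PA came from Control 3 and Val+PA 2, the libraries that stood apart.

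The log2 fold change of Slc39a10 was -0.24 (SE 0.19) between Valine and Control and -0.42 (SE 0.077) without these 2 libraries, both given as descriptions. Against Control, Val+PA differed by -0.19 (95% interval -0.60 to 0.23, adjusted p = 0.468), and without the 2 libraries by -0.20 (adjusted p = 0.0569). Against Valine the difference was 0.056 (adjusted p = 0.904), and without them 0.22 (adjusted p = 0.147).

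Of the 4 tested genes, 2 fell in Val+PA against Control, Mt1 and Mtf1. The Control libraries also served to choose Mt1, so its place in this count is not independent of the choice. In this comparison 39.2% of all genes passed, 20.4% higher and 18.8% lower, and the libraries of the 2 groups did not overlap in 45.5% (23.5% higher, 22.1% lower). None of the 4 passed between Val+PA and Valine, where 0.0% of all genes passed.

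Levels of different genes were compared on the deposited normalized signal, which is scaled by exonic length. In Control, Mt1 had a signal of 81.1 ± 13.0, followed by Slc39a10 with 14.1 ± 3.89, Slc30a1 with 5.77 ± 0.887 and Mtf1 with 4.89 ± 0.458 (SD, n = 3). In Valine the order was the same, with 17.2 ± 2.12, 12.2 ± 0.513, 5.74 ± 0.226 and 3.80 ± 0.183. In Val+PA the signals were 24.7 ± 5.08, 12.6 ± 2.73, 5.10 ± 0.832 and 3.74 ± 0.362. Slc30a1 and Mtf1 overlapped in Control, at 5.10 to 6.78 and 4.36 to 5.16, and the other neighbours in the order did not overlap in any group. Mt1 was thus the most abundant of the 4 per length in each group, and its lead over Slc39a10 was smallest in Valine. The length of Mt1, 1246 bases, is its whole annotated span, so with a shorter transcript its level per length would be higher.

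Among the 24 zinc transporter genes, Slc39a10 was 12th and Slc30a1 14th in signal in each of the 3 groups. Slc30a4, which encodes the vesicular exporter ZnT4, was first, with a signal of 314.8 ± 33.2 in Control. The importers Slc39a1 and Slc39a6 came next. The 7 genes that could not be tested, Slc30a2, Slc30a3, Slc30a8, Slc30a10, Slc39a2, Slc39a4 and Slc39a12, had at most 12 counts in a library. Slc30a8, the zinc transporter of insulin granules, had none.

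**Figure D4:**
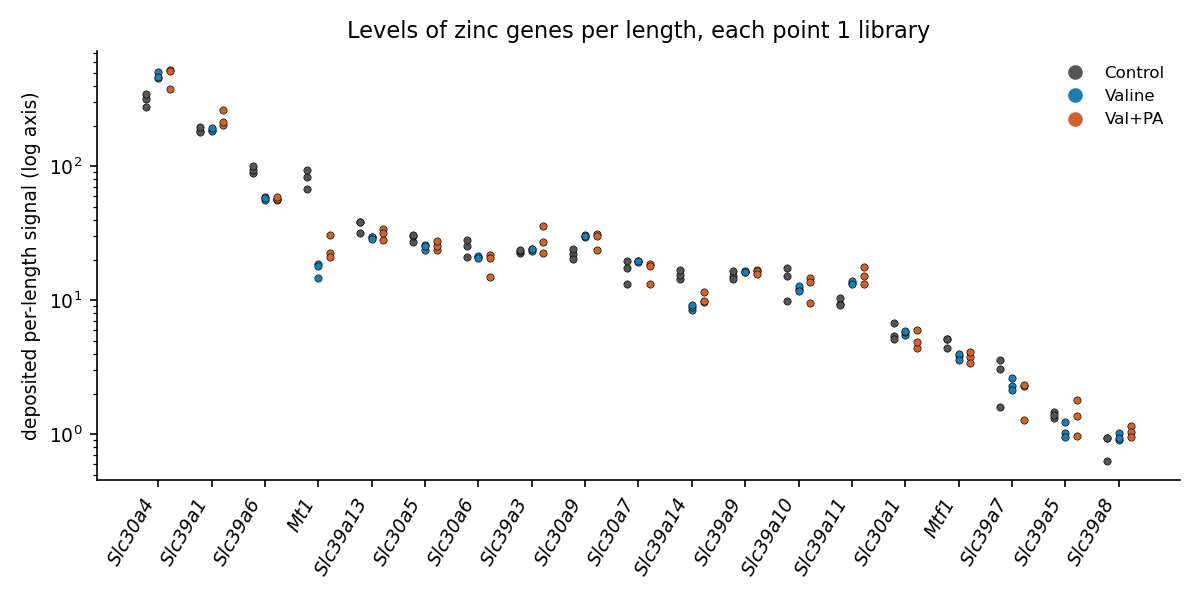
Deposited per-length signal (vertical axis, log scale) of Mt1, Mtf1 and the 17 tested zinc transporters, ordered by their mean in Control. Each point is 1 library of Control, Valine or Val+PA. Slc30a4 is highest in all groups, and Mt1 moves from 81.1 in Control to 17.2 in Valine. With its whole annotated span of 1246 bases as its length, Mt1 in Valine lies close to the importers of middle level.

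Zinc transporters moved in both directions. Apart from Slc30a1 and Slc39a10, 15 were tested. Between Valine and Control, 3 of the 15 rose and 4 fell, beside 41.9% of all genes called. The median log2 fold change was -0.033, against -0.0049 for all genes. In Val+PA against Control, 3 rose and 3 fell, beside 39.2% of all genes, with a median of -0.035 against -0.0018. None passed between Val+PA and Valine, beside 0.0% of all genes. Without Control 3 and Val+PA 2, 3 of the 15 rose and 6 fell in Valine against Control, where 54.1% of all genes were called. In that fit 4 rose and 5 fell in Val+PA against Control, beside 49.8% of all genes, and none passed between Val+PA and Valine, beside 3.21%. Leaving out 1 library at a time gave 4 to 8 called genes between Valine and Control, the 4 without Valine 2, and 4 to 7 between Val+PA and Control.

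Among the ZnT genes other than Slc30a1, 2 of 5 rose and 1 fell in Valine against Control. Over all genes 20.8% rose and 21.1% fell. Slc30a4 had 857.3, 898.5 and 773.7 CPM in Control and 1316, 1190 and 1231 in Valine, while Val+PA had 1373, 989.2 and 1355. All treated libraries lay above all Control libraries, as 29.7% of all genes did in Valine and 23.5% in Val+PA. It rose by 0.56 in Valine (SE 0.13, adjusted p = 0.00386) and by 0.56 in Val+PA (SE 0.13, adjusted p = 0.00435) on the log2 scale.

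Slc30a9, whose product is placed in mitochondria, rose by 0.42 in Valine (adjusted p = 0.0107) and by 0.33 in Val+PA (adjusted p = 0.0352). Slc30a5 and Slc30a6 encode partners that supply zinc to enzymes of the secretory pathway. Slc30a5 fell by 0.27 in Valine (adjusted p = 0.0470), where Slc30a6 had -0.28 (adjusted p = 0.140). In Val+PA, Slc30a6 fell by 0.41 (adjusted p = 0.0413) and Slc30a5 had -0.22 (adjusted p = 0.0978). These small changes depended on single libraries. The call of Slc30a5 was lost without Control 2, Control 3, any 1 Valine library or Val+PA 3 (adjusted p = 0.0578 to 0.174). That of Slc30a6 was lost without Control 1, Control 2, any 1 Valine library, Val+PA 2 or Val+PA 3 (0.0641 to 0.145), and that of Slc30a9 in Val+PA without any 1 library other than Val+PA 2 (0.0534 to 0.116). Slc30a7, a transporter of the Golgi, had 0.18 and -0.035 and did not pass.

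Among the ZIP genes other than Slc39a10, 1 of 10 rose and 3 fell in Valine against Control, beside 41.9% of all genes called (20.8% higher, 21.1% lower). Slc39a14 encodes ZIP14, an importer of zinc and of iron not bound to transferrin. It had 73.9, 77.9 and 89.8 CPM in Control and 42.1, 44.3 and 46.7 in Valine, while Val+PA had 49.3, 58.1 and 49.8. It fell by 0.86 in Valine (SE 0.11, adjusted p = 8.47e-05) and by 0.62 in Val+PA (SE 0.11, adjusted p = 0.000900). None of its treated libraries reached the Control range, beside 29.2% of all genes in Valine and 22.1% in Val+PA that lay below it.

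Slc39a6, which encodes ZIP6, known to pair with ZIP10, had 177.5, 180.2 and 205.8 CPM in Control and 109.2, 113.9 and 114.1 in Valine, while Val+PA had 109.7, 111.5 and 114.0. It fell by 0.74 (SE 0.093, adjusted p = 6.33e-05) and by 0.75 (SE 0.093, adjusted p = 6.07e-05). The treated groups overlapped each other and lay below Control, beside 29.2% of all genes in Valine and 22.1% in Val+PA. Slc39a10, its partner, did not pass in Val+PA.

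Slc39a11, an importer placed in the Golgi, rose by 0.45 in Valine (adjusted p = 0.0134) and by 0.64 in Val+PA (SE 0.13, adjusted p = 0.00165). The former call was lost without Control 1 (adjusted p = 0.0516) or Valine 2 (0.0527). Slc39a13, an importer of intracellular vesicles known from connective tissue, fell by 0.34 in Valine (adjusted p = 0.0211). That call was lost without Control 1 or 2 or any 1 Valine library, with adjusted p of 0.0691 to 0.0798. The plasma membrane importers Slc39a1 and Slc39a3 did not pass, with -0.033 and -0.0035 in Valine, while their values in Val+PA were 0.24 and 0.26. Slc39a7, the importer of the endoplasmic reticulum, had 1.58 to 4.55 CPM, and 2084 of its 2584 exonic bases are shared with another gene on the same strand, so its level is uncertain.

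**Figure D5:**
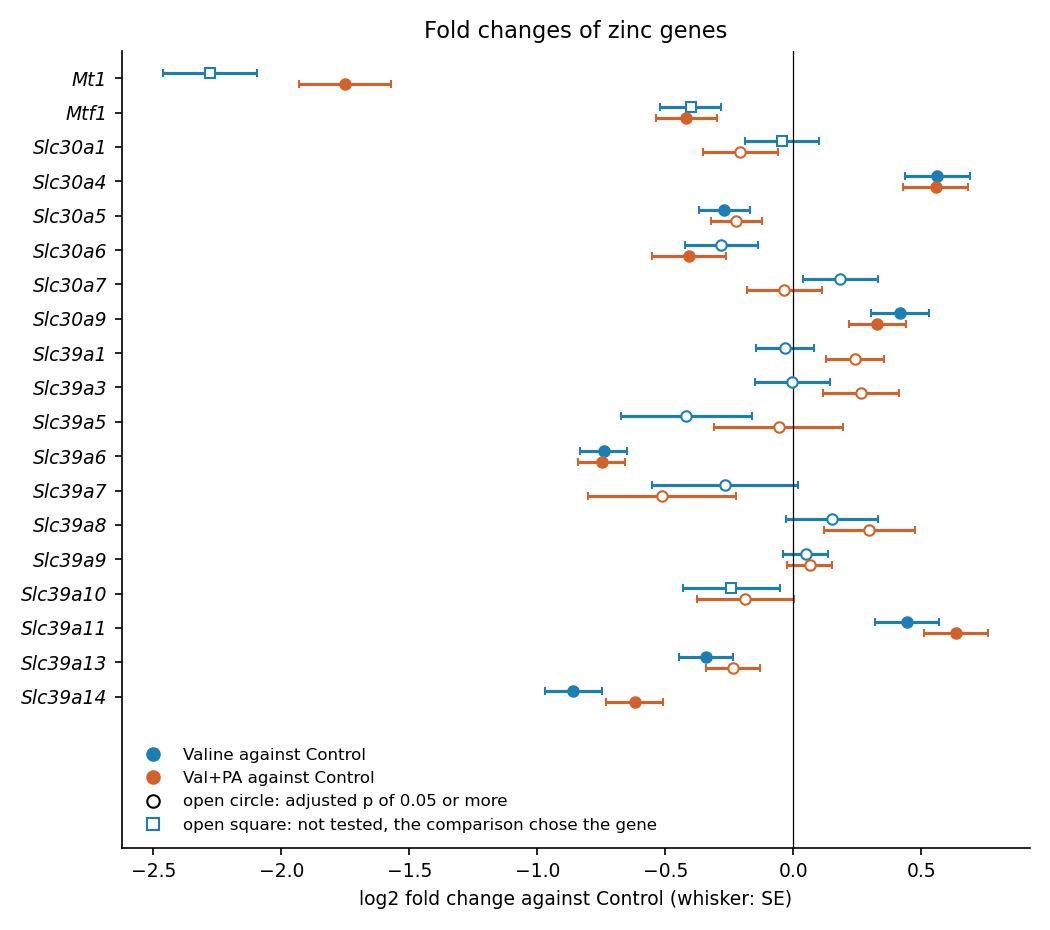
Log2 fold change against Control (horizontal axis, whiskers: SE) of Mt1, Mtf1 and the 17 tested zinc transporters, in Valine and in Val+PA. Filled circles passed an adjusted p of 0.05, open circles did not, and open squares are the genes and the comparison for which no test is given. Mt1 lies at -2.28 and -1.75, and the lowest transporter, Slc39a14 in Valine, lies at -0.86.

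Genes reported in the literature as MTF-1 targets moved in both directions. The list holds Mt1, Mt2, Slc30a1, Slc39a10 and 7 others, all 7 of which were tested. In Valine against Control, 3 of the 7 rose and 2 fell (median 0.28), beside 41.9% of all genes called. In Val+PA against Control 5 of the 7 rose and 2 fell (median 0.50), beside 39.2%. Without Control 3 and Val+PA 2, 5 rose and 2 fell in both comparisons, beside 54.1% and 49.8% of all genes. Slc40a1, the iron exporter ferroportin, had 14.0, 12.2 and 13.5 CPM in Control and 83.7, 78.5 and 75.8 in Valine, while Val+PA had 86.2, 87.0 and 94.5. It rose by 2.58 (SE 0.11, adjusted p = 3.65e-08) and 2.75 (SE 0.11, adjusted p = 2.27e-08), opposite in direction to Mt1. Ndrg1, a stress-responsive gene, rose by 0.88 and 1.04, and Csrp1, which encodes a LIM-domain protein, by 0.48 in both. Selenoh, a selenoprotein gene, fell by 1.27 and 1.15, and Gclc, which encodes the catalytic subunit of glutathione synthesis, fell by 0.63 and 0.57. In Val+PA, Pgf, a growth factor gene, rose by 0.67 (adjusted p = 0.00243) and Selenow by 0.50 (adjusted p = 0.0122, and 0.0506 without Control 2), while in Valine they had 0.23 and 0.28 and did not pass. None of the 7 passed between Val+PA and Valine, beside 0.0% of all genes. Pgf had the smallest p there (0.44, SE 0.14, adjusted p = 0.313).

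Copper is also bound by metallothioneins, and genes of copper handling were followed for that reason. In Valine against Control, 2 of 10 tested genes rose and 3 fell, beside 41.9% of all genes called. Cox17, the copper chaperone of cytochrome oxidase, rose by 0.99 (SE 0.11, adjusted p = 3.15e-05), from 8.85 ± 0.431 to 17.6 ± 0.830 CPM. Steap3, a metalloreductase, fell by 0.58 (SE 0.13, adjusted p = 0.00388). In Val+PA against Control 2 rose and 2 fell, beside 39.2%. Cox17 rose by 0.88, and Sod1, the copper and zinc superoxide dismutase, fell by 0.36 (adjusted p = 0.0141, and 0.0697 without Control 1). The count between Valine and Control was 3 without any 1 of the Valine libraries. Without Control 3 and Val+PA 2 it was 8, 4 in each direction, where 54.1% of all genes were called.

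Glucocorticoids are known inducers of Mt1, and 9 of 10 genes that respond to them were tested. In both comparisons with Control, 2 rose and 4 fell, beside 41.9% of all genes called in Valine and 39.2% in Val+PA. Without Control 3 and Val+PA 2, 3 rose and 4 fell in Valine, beside 54.1% of all genes. In that fit 5 rose and 4 fell in Val+PA, beside 49.8%. Genes known as targets of the glucocorticoid receptor were among those that rose and those that fell. Tsc22d3 rose by 1.11 in Valine (SE 0.090, adjusted p = 2.22e-06) and by 1.09 in Val+PA (SE 0.090, adjusted p = 2.30e-06). Errfi1, a feedback inhibitor of the EGF receptor, fell by 2.16 (SE 0.12, adjusted p = 1.36e-07) and 2.04 (SE 0.12, adjusted p = 2.38e-07). Fkbp5, which encodes a co-chaperone of the receptor, fell by 1.25 and 0.96, Dusp1, a phosphatase of MAP kinases, by 1.39 and 1.10, and Sgk1, a kinase gene, by 0.97 and 0.68. The other rise in Valine was in the receptor gene Nr3c1 (0.50, adjusted p = 0.0141), a call lost without Valine 1 (adjusted p = 0.0552). In Val+PA the other rise was in the transcription factor gene Cebpd (0.65, adjusted p = 0.0326), a call lost without Control 1 (adjusted p = 0.0596), without Control 2 (0.126) or without Val+PA 2 (0.117).

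Between Val+PA and Valine, the gene with the smallest p among the ZIP, ZnT, copper and glucocorticoid-responsive genes did not pass. Over all genes 0.0% passed in this comparison. Slc39a1 had 0.27 (adjusted p = 0.356), Slc30a7 -0.22 (0.487), Steap3 0.43 (0.293) and Sgk1 0.29 (0.329). Without Control 3 and Val+PA 2, Steap3 (0.29, adjusted p = 0.0328) and Sgk1 (0.32, adjusted p = 0.0132) passed.

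The genes whose pattern was most like that of Mt1 over the 9 libraries were sought among 11055 tested genes with a mean of at least 2 CPM, by Pearson's r of log2 CPM. Among the most similar were Ttll11 (r = 0.993), Commd4 (0.992), Egr1 (0.991) and Hk2 (0.991). Egr1, an immediate early transcription factor, had 36.4 ± 3.57 CPM in Control, against 7.11 ± 0.953 in Valine and 9.03 ± 1.62 in Val+PA. Hk2, which encodes a hexokinase, had 42.6 ± 5.43, 17.7 ± 1.204 and 21.3 ± 3.69 CPM (SD, n = 3 each). A total of 518 genes had an r of at least 0.95 with Mt1. All points share the step between Control and the treated groups and the scaling of the libraries, and r is given as a description.

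For Slc39a10 the most similar genes included Zfp35 (r = 0.965), Sgpl1 (0.954), S100a10 (0.946) and Sertad2 (0.940), and only 2 genes had an r of at least 0.95. Sgpl1, which encodes sphingosine-1-phosphate lyase, had 388.8 ± 43.7 CPM in Control, against 339.9 ± 5.51 in Valine and 348.6 ± 50.5 in Val+PA. As for Slc39a10, the spread was smallest among the Valine libraries.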

How the data were processed

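RNA sequencing of 9 C2C12 libraries was analysed from 2 tables. The first holds raw counts per gene, deposited by the authors and made with HISAT2 and featureCounts on GRCm38, per the submitters' processing notes, which also name DESeq2. The strand setting of featureCounts, like tool versions and filters, is not given in the sources used here. A second table holds a normalized signal deposited by the authors. 98.4% of 133432 values matched the count divided by exonic length and a factor per library within 1%. Val+PA columns carry a shortened form of the code in the titles and were matched by it. Symbols, coordinates and overlaps came from GENCODE M21 (GRCm38), which named 52147 of 53700 IDs.

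Counts were filtered with filterByExpr (18415 genes kept), scaled by TMM and fitted with the quasi-likelihood test of edgeR 4.0.16 in R 4.3.3, with group means only and all 9 libraries in 1 fit (6 residual degrees of freedom). P-values are two-sided and adjusted by Benjamini-Hochberg over all genes tested, with a threshold of 0.05. To obtain the SE, the absolute log2 fold change was divided by the root of the F statistic. CPM are counts scaled by the TMM-adjusted library size. No 2 libraries agreed within sampling noise.

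The members and lists were chosen with earlier results of these data known. Genes named are the members and Mt4, in each list the called genes with the largest rise and fall at a mean of at least 2 CPM (or the smallest p where fewer than 2 are called), the called neighbours of Mt1, and the 5 genes most like Mt1 and Slc39a10 in pattern (r of log2 of CPM plus 0.5). A few genes that this rule names are not reported here. The other called zinc transporters, MTF-1 targets and glucocorticoid-responsive genes, and the transporters named as not called, fall outside this rule, having been chosen with their values in view. On simulated counts, 42 of 50 genes changed 2-fold and 50 of 50 changed 3-fold were recovered in a simulation of Valine against Control (a step of 17998 genes), and 10 unchanged genes were called. The simulation changed far fewer genes than were called in the data and held no library that stood apart. Its recovery therefore does not give the power of the fit to these data. Alternatives were other scaling factors, DESeq2 1.42.0, limma-voom (limma 3.58.1), other filters, fits of the compared groups only, a replicate block, fits without 1 or 2 libraries, a stricter threshold (0.01), and limma on the log2 signal with 1 or 0.1 added.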

Additional observations from a re-analysis of the deposited data

How the results depend on the processing

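Mt1 kept its direction in every alternative run, from -2.42 to -2.14 between Valine and Control, -1.93 to -1.61 between Val+PA and Control, and 0.35 to 0.64 between Val+PA and Valine, where it passed with no filter on low counts alone (0.53, adjusted p = 0.0313). Signs turned for differences near 0. Mtf1 between Val+PA and Valine was 0.0088 without Valine 2 and 0.058 without Val+PA 3 (-0.087 to 0.058 without 1 library). Slc30a1 between Valine and Control was 0.012 with upper-quartile factors, 0.026 with library size alone, 0.062 without Control 2 (-0.10 to 0.062 without 1 library) and 0.00061 on the log2 signal plus 0.1. Slc39a10 between Val+PA and Valine was -0.066 without Val+PA 1 and -0.0046 without Val+PA 3 (-0.066 to 0.22 without 1 library). The causes were not tested.

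The genes called numbered 7718 between Valine and Control (5092 at an adjusted p of 0.01), 7219 between Val+PA and Control and 0 between Val+PA and Valine, where DESeq2 called 193, no filter 763 and the fit without Control 3 and Val+PA 2 604. Leaving out 1 library gave 5796 to 9244, 6043 to 7863 and 0 to 0. Called zinc transporters between Valine and Control, with Slc30a1 and Slc39a10 left out, were 3 at 0.01 and 4 to 8 without 1 library.

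Copper genes called between Valine and Control were 3 with library size alone, 8 without Control 3 and Val+PA 2 (beside 54.1% of all genes) and 2 at 0.01. Those between Val+PA and Control were 2 with the 2 groups alone and 2 at 0.01. Between Val+PA and Valine, 1 gene of the MTF-1 target list, which holds Mt1, passed with no filter. Without Control 3 and Val+PA 2, 1 copper gene, 1 glucocorticoid-responsive gene and 1 neighbour of Mt1 passed, beside 3.21% of all genes.

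Libraries with the same number did not deviate together (r from -0.272 to 0.158), so the numbers do not pair them. With the replicate block, 7369 genes were called between Valine and Control, 6935 between Val+PA and Control and 0 between Val+PA and Valine. Mt2, Mt3 and Mt4 had 0 to 2 counts in a library, too few to test. The part of depth in these low counts was not tested.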
